A study of Arabidopsis thaliana with 6 samples.

Results

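The genes described here are 5 genes of the tapetum and the pollen wall, measured in inflorescences of *Arabidopsis thaliana* in the wild type and in the mutant *top1α-2*. They are *ATA27* (AT1G75940), AT5G07230, known as *A9*, *BZIP34* (AT2G42380), *INP1* (AT4G22600) and *UND* (AT4G12920). They were chosen by probe set, and each is read by 1 probe set that names that gene alone, so they are 5 of the 13286 genes that a probe set of the array names alone. Both genotypes are in the accession Landsberg erecta and were grown under continuous light. RNA came from whole inflorescences, the shoot tips that carry buds and open flowers, with 3 biological replicates per genotype and 1 Affymetrix array per replicate. *top1α-2* carries a mutation in a gene for DNA topoisomerase 1, an enzyme that relaxes supercoils in DNA, and the comparison asks which transcripts depend on it. The labels do not say how many plants went into a replicate. The mutated gene has no probe set named in the annotation used here and was not analysed, so its level gives no check of the genotype labels.

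The tapetum is the innermost cell layer of the anther wall. It feeds the developing microspores, makes the precursors of the outer pollen wall, the exine, and at the end breaks down and leaves its contents on the grain as the pollen coat. *ATA27* encodes a protein of the beta-glucosidase family, also listed as *BGLU20*, and *A9* encodes a small protein made in the tapetum. Both are markers of that layer, and the *A9* promoter is widely used to drive genes there. *BZIP34* encodes a transcription factor of the basic leucine zipper class, needed for a normal exine pattern. *INP1* encodes a protein that marks the places where the exine leaves apertures, and *UND*, or *UNDEAD*, encodes an aspartic protease that acts in the timing of tapetal cell death.

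Of the 5 genes, 3 fell in *top1α-2*, 0 rose and 2 were not called. *ATA27* and *A9* were bright on every array, at or above the 93.3 percentile of all probe sets, and lay 2.29-fold and 2.06-fold lower in the mutant. *BZIP34*, of moderate to low signal, lay 3.44-fold lower. *INP1* and *UND* were dim, their values were widely spread and their genotypes overlapped. A gene is called lower or higher where limma gives an adjusted p under 0.05 over all 22746 probe sets without controls. By that rule 5.86% of all probe sets were lower and 3.40% were higher. The members were chosen with earlier results of these data in view, so their count is a description. In RNA of whole inflorescences, fewer cells of a type and less RNA per cell cannot be told apart.

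The values are log2 MAS5 signals, in which the authors' software had scaled every array to the same average. *ATA27* had a signal of 13.50, 13.70 and 13.59 in wild-type replicates 1, 2 and 3, and of 12.26, 12.25 and 12.70 in *top1α-2* replicates 1, 2 and 3. All 3 mutant arrays lay below all 3 wild-type arrays, with 0.80 between the lowest wild-type and the highest mutant value. The mean of 13.60 ± 0.10 for the wild type compares with 12.40 ± 0.26 for *top1α-2* (SD, n = 3). The log2 change was −1.19 with a standard error of 0.15, and the limma adjusted p was 0.000767. The 95% interval of the fold ran from 1.81 to 2.89. Unlogged, the signal was 11585 to 13308 on wild-type arrays and 4871 to 6654 on mutant ones. Its signal stood between the 97.5 and 99.8 percentile of its array.

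*A9* had a signal of 11.93, 12.62 and 12.38 in the wild type and of 11.04, 11.28 and 11.49 in *top1α-2*. The groups did not overlap, and the nearest pair, wild-type replicate 1 and *top1α-2* replicate 3, lay 0.44 apart. The means were 12.31 ± 0.35 and 11.27 ± 0.23 (SD, n = 3), a log2 change of −1.04 with a standard error of 0.18, at a limma adjusted p of 0.00437. The 95% interval of the fold ran from 1.56 to 2.70. With a variance prior that does not follow the signal this call was lost, at a limma adjusted p of 0.0778, while *ATA27* and *BZIP34* kept theirs at 0.0296 and 0.0263. The intervals of the 2 tapetum markers overlapped, and a difference between their changes was not tested.

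*BZIP34* had a signal of 7.18, 6.50 and 7.08 in the wild type and of 4.87, 5.24 and 5.30 in *top1α-2*. The genotypes were the farthest apart of the 5 genes, with 1.20 between the lowest wild-type and the highest mutant value. The means were 6.92 ± 0.37 and 5.14 ± 0.23 (SD, n = 3), and the log2 change was −1.78 with a standard error of 0.34, at a limma adjusted p of 0.00768. The 95% interval of the fold ran from 2.05 to 5.79. Its wild-type mean lay below 7.73, the median of all probe sets. With 1 array left out at a time the limma adjusted p stayed between 0.00799 and 0.0449. With a pseudocount of 16, which draws dim values together, the log2 change was −1.42.

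*INP1* had a signal of 3.68, 5.79 and 5.17 in the wild type and of 3.69, 4.05 and 1.47 in *top1α-2*. Wild-type replicate 1 lay at the level of *top1α-2* replicate 1, so the groups overlapped. The log2 difference was −1.81 with a standard error of 0.84, a 95% interval from −3.68 to 0.06 and a limma adjusted p of 0.229. *UND* had a signal of 2.90, 5.72 and 4.49 in the wild type and of 2.83, 0.78 and 5.28 in *top1α-2*. Its lowest and second highest values both came from the mutant. The log2 difference was −1.41 with a standard error of 1.12, a 95% interval from −3.90 to 1.09 and a limma adjusted p of 0.509. Both intervals include 0 and also decreases larger than those of the 3 genes called, so no change of *INP1* or *UND* was detected.

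**Figure D1:**
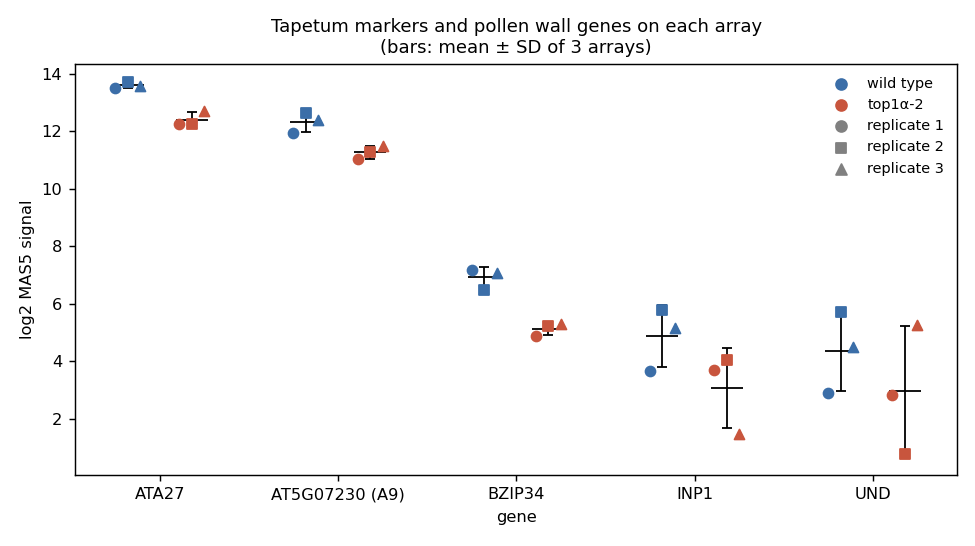
Log2 MAS5 signal (vertical axis) of the 5 genes on each array, with wild type in blue, *top1α-2* in red and a symbol per replicate; bars give the mean ± SD of 3 arrays. The genotypes are apart for *ATA27*, AT5G07230 (*A9*) and *BZIP34* and overlap for *INP1* and *UND*, whose values run from 0.78 to 5.79.

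Standard errors were larger among dim probe sets. Among the 1657 probe sets with a mean signal within 0.5 of that of *INP1* the median standard error was 0.795, and 1.63% were called lower. Among the 1521 within 0.5 of *UND* the figures were 0.852 and 1.64%. The standard error of *INP1* was above that of 61.7% of the probe sets of its signal, and that of *UND* above 94.5%. Among the 294 probe sets as bright as *ATA27* the median standard error was 0.137 and 3.40% were called lower, and among the 732 as bright as *A9* 6.42% were. The standard error of *A9* was above that of 92.3% of these. Near *BZIP34* the 1989 probe sets had a median standard error of 0.361, and 5.33% were called lower. The median log2 change over all probe sets was −0.0033. MAS5 detection calls did not enter these values, and a dim signal here does not mean an absent transcript.

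**Figure D2:**
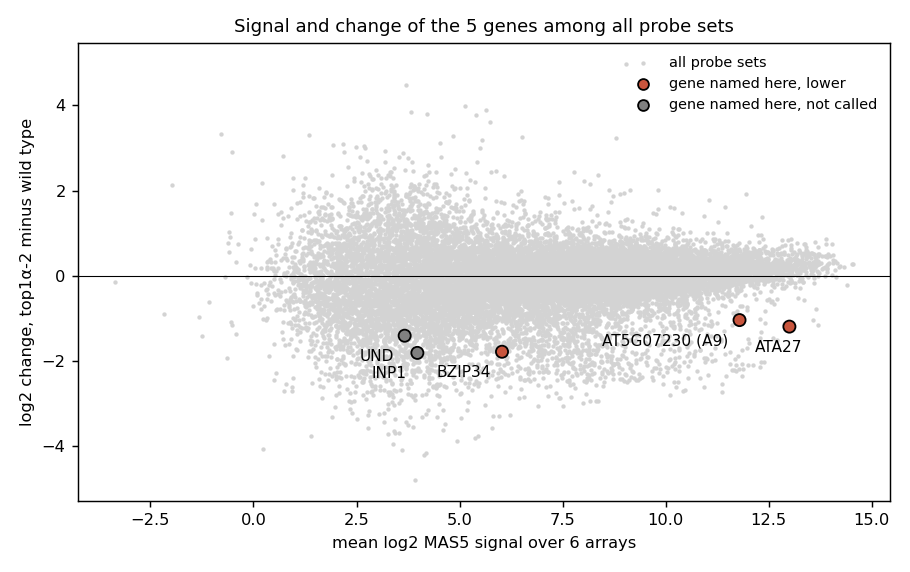
Log2 change from wild type to *top1α-2* (vertical axis) against the mean log2 MAS5 signal over 6 arrays (horizontal axis), with every probe set in grey and the 5 genes marked by call. *ATA27* and AT5G07230 (*A9*) lie below the dense band of bright probe sets, while *INP1* and *UND* lie within the wide scatter of dim ones.

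The wild-type arrays did not rank alike for all 5 genes. In 4 of them, *ATA27*, *A9*, *INP1* and *UND*, wild-type replicate 1 was the lowest and replicate 2 the highest wild-type array, an order shown by 19.9% of all probe sets. In *BZIP34* replicate 1 was the highest and replicate 2 the lowest, as in 20.4% of all probe sets. The spread behind these orders was small for *ATA27*, whose wild-type values lay within 0.20 of each other, and wide for *UND*. Among the mutant arrays replicate 3 was the highest in *ATA27*, *A9*, *BZIP34* and *UND* and the lowest in *INP1*. With 3 arrays per genotype these orders are descriptions, and no test was made of them.

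Markers of other cell types moved with genotype on the same arrays. The marker lists were chosen with earlier results of these data known. Of 22 mature pollen markers listed, 15 had a probe set that names the gene alone. Of these, 14 fell and 0 rose, beside 5.86% lower and 3.40% higher among all probe sets. They include the pollen pectate lyase gene *AT59*, *VEX1*, a gene of the vegetative cell, and *MGH3*, a histone gene of the male germ line, with log2 changes of −2.93, −2.25 and −2.24. The one not called was *ANX1*, a receptor kinase gene of the pollen tube, with a log2 difference of −2.54 and a limma adjusted p of 0.0661. *AGL104* and *AGL30* lost their calls when single arrays were dropped, the highest limma adjusted p values being 0.0882 and 0.0703. With a variance prior that does not follow the signal *ACT11*, *TUA1*, *AGL104*, *XIC* and *XIE* lost theirs, at limma adjusted p values from 0.0524 to 0.141. Summed over the 15 genes, the unlogged signal was 9095 to 14246 on wild-type arrays and 3626 to 4052 on mutant arrays. None had a signal of 0, and 2 lay below the median of all probe sets on every array. The mean log2 signal of the list was 9.34, 8.54 and 8.73 in the wild type and 6.93, 6.99 and 7.18 in *top1α-2*. Wild-type replicate 1 was thus the highest for pollen markers, in 15 of 15 genes, beside 38.1% of all probe sets. It was the lowest for both tapetum markers, as for 33.3% of all probe sets, with a deviation of only −0.097 for *ATA27*. The mean log2 signal of 12 other tapetum and pollen wall genes was 8.89, 8.41 and 8.53 in wild-type replicates 1, 2 and 3. On average replicate 1 was the highest there as well, though not in each gene, as *SHT* and *SPL* were highest in replicate 2. Replicate 1 was also the lowest for *INP1* and *UND*, so the tapetum and pollen wall genes did not share 1 order.

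Of 10 green tissue markers 5 were measured, and 4 of them rose and 0 fell, beside 3.40% higher among all probe sets. *LHCB4.2*, of a photosystem II antenna protein, rose by 0.79 and *PORB*, of chlorophyll synthesis, by 0.76. Summed over the 5 genes, the unlogged signal was 19069 to 26452 on wild-type arrays and 32486 to 39053 on mutant arrays. The calls of *PORB*, *PSBW* and *CaS* were lost when single arrays were dropped, the highest limma adjusted p values being 0.0916, 0.0809 and 0.0723. With a variance prior that does not follow the signal all 4 calls were lost, at limma adjusted p values from 0.0779 to 0.162. The 2 measured meiocyte markers, *SPO11-1* and *SDS*, had log2 differences of −0.25 and −0.22, the carpel and ovule markers *INO* and *SPT* of −0.44 and 0.09, and the petal gene *RBE* of 1.03, and 0 of these 5 were called by limma. At an unadjusted p under 0.05 there were also 0, beside 23.3% of all probe sets. With 5 genes this count does not show a lack of change. *SPO11-1*, *SDS* and *RBE* lay below the median of all probe sets on every array, with standard errors of 0.46, 0.44 and 0.86. Those of *INO* and *SPT* were 0.20 and 0.16. The interval ran from −1.28 to 0.78 for *SPO11-1*, from −1.20 to 0.76 for *SDS* and from −0.89 to 2.94 for *RBE*. For *INO* it ran from −0.89 to 0.01 and for *SPT* from −0.25 to 0.44. The intervals of the meiocyte markers include 0 and also the changes of *ATA27* and *A9*, so decreases of that size are not excluded.

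Without wild-type replicate 1, the array that stood apart for pollen and green tissue markers, the log2 changes were −1.24 for *ATA27*, −1.23 for *A9* and −1.65 for *BZIP34*. The limma adjusted p values were 0.0012, 0.000715 and 0.0384. Wild-type replicate 1 was the lowest wild-type array for the 2 tapetum markers and the highest for *BZIP34*. Leaving it out therefore had to enlarge the decreases of the markers and shrink that of *BZIP34*, so no conclusion is drawn from these shifts. The part that the content of pollen or green tissue has in these changes was not tested. Among 6 ratios of 3′ to 5′ control signal, which follow RNA quality, that of 1 actin control was 0.46 higher in the mutant on the log2 scale without overlap, the others overlapped, and its part was not tested either.

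**Figure D3:**
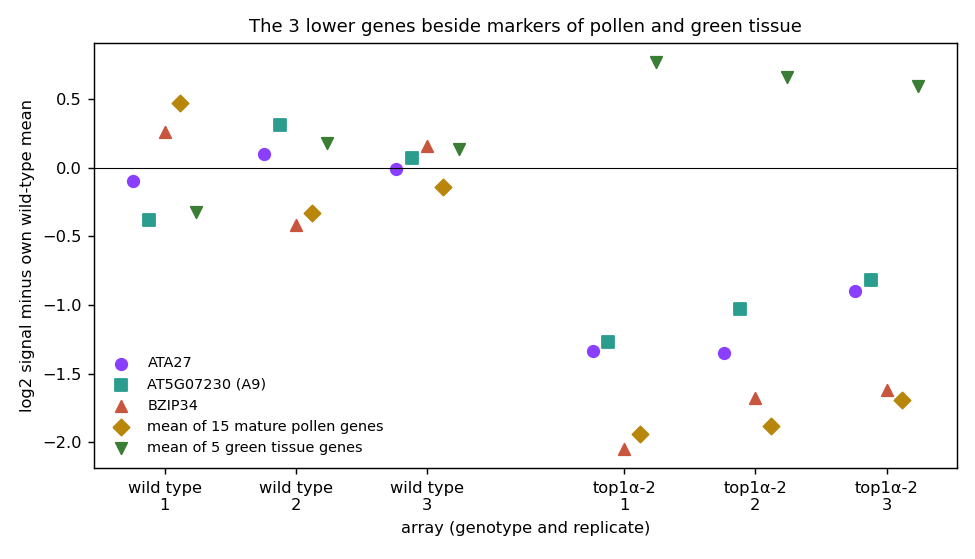
Log2 signal minus the item's own wild-type mean (vertical axis) on each array (horizontal axis) for *ATA27*, AT5G07230 (*A9*), *BZIP34* and the means of 15 mature pollen genes and 5 green tissue genes. Wild-type replicate 1 is above its group's mean for *BZIP34* and the pollen genes, at 0.26 and 0.47, and below it for *ATA27*, *A9* and the green tissue genes.

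Other genes of the tapetum and the pollen wall came from 4 lists of 79 genes, of which 12 had a probe set that names the gene alone. Of these 12, 6 fell, 0 rose and 6 were not called, beside 5.86% lower among all probe sets. Their median log2 change was −0.88, beside −0.0033 for all probe sets. In 8 of the 12 the 3 mutant values lay below the 3 wild-type values, which held for 14.5% of all probe sets. The count of 6 was 3 without *top1α-2* replicate 2 and also 3 without *top1α-2* replicate 3 or with a variance prior that does not follow the signal. Under that prior *SPL* and *SHT* kept their calls, the other 4 lost theirs, and *AMS*, not called otherwise, was lower at a limma adjusted p of 0.0432. Several of these genes were known from earlier results of these data to be lower.

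Among regulators of the anther and tapetum, *SPL*, which starts the formation of spore mother cells, fell from 7.32 ± 0.17 to 5.85 ± 0.38 (SD, n = 3), a log2 change of −1.46 at a limma adjusted p of 0.00897. *AMS*, a transcription factor of the basic helix-loop-helix class that acts in the tapetum, had a signal of 6.58, 6.82 and 6.94 in the wild type and of 5.98, 5.64 and 5.87 in *top1α-2*. These did not overlap, and the log2 difference of −0.95 had a limma adjusted p of 0.0671. *EMS1*, the receptor kinase gene that specifies tapetal cells, differed by −0.31 on the log2 scale, at a limma adjusted p of 0.191. The glutaredoxin genes *ROXY1* and *ROXY2*, needed for early anther lobes, had log2 differences of 0.19 and −0.22 with overlapping genotypes.

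Genes that build the wall and coat were represented by few members. *SHT*, whose enzyme couples hydroxycinnamic acids to spermidine in the tapetum for the pollen coat, had a signal of 11.73, 11.80 and 11.66 in the wild type and of 10.25, 9.92 and 10.31 in *top1α-2*. It was the most tightly measured of these genes, with a log2 change of −1.57, a standard error of 0.12 and a limma adjusted p of 5.2e-05, and it kept its call with each array left out. *BETA-VPE*, a vacuolar processing enzyme gene, had a log2 difference of −0.55 and a limma adjusted p of 0.133, and its genotypes overlapped.

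In the group of exine patterning 5 of 23 listed genes were measured, and 4 of these 5 fell, beside 5.86% lower among all probe sets. *SWEET8*, a sugar transporter gene needed for the primexine on which the exine is laid, fell by 1.57 on the log2 scale, and *SWEET13*, its relative, fell by 1.06. *BZIP61* and *BZIP18*, of the same transcription factor class as *BZIP34*, had log2 changes of −0.89 and −0.87. *BZIP61* had a signal of 8.45, 8.27 and 8.31 in the wild type and of 7.88, 7.05 and 7.44 in *top1α-2*, and *BZIP18* of 8.82, 8.56 and 8.16 against 7.85, 7.57 and 7.51. All 3 leucine zipper genes were therefore lower without overlap, which held for 14.5% of all probe sets. *USP*, of a sugar nucleotide enzyme, differed by −0.06 on the log2 scale, at a limma adjusted p of 0.814.

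The calls of the 4 patterning genes depended on single arrays and on the variance prior. With a prior that does not follow the signal their limma adjusted p values were 0.134 for *SWEET8*, 0.139 for *SWEET13*, 0.119 for *BZIP61* and 0.101 for *BZIP18*. *SWEET8* lost its call without wild-type replicate 3 and without *top1α-2* replicate 2, at limma adjusted p values of 0.0556 and 0.0535, and *SWEET13* without *top1α-2* replicate 3, at 0.0543. *BZIP61* lost it without any of 4 arrays, wild-type replicates 1 and 3 and *top1α-2* replicates 2 and 3, at limma adjusted p values from 0.0726 to 0.0781. *BZIP18* lost it without wild-type replicate 1 or *top1α-2* replicate 2 or 3, at values from 0.0588 to 0.0708. By contrast *ATA27*, *A9*, *BZIP34*, *SPL* and *SHT* kept their calls with each of the 6 arrays left out.

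**Figure D4:**
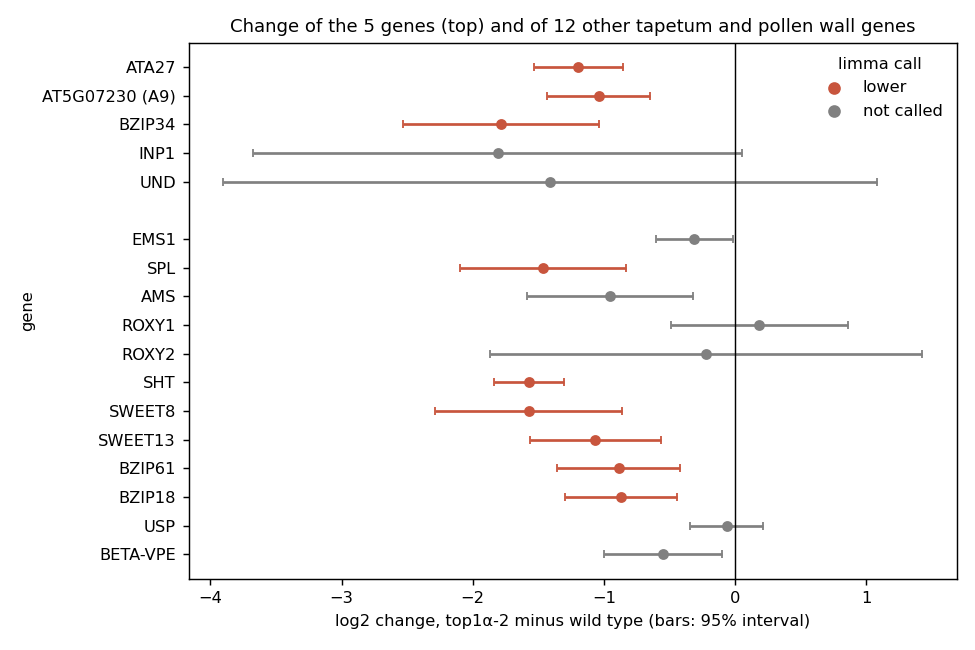
Log2 change from wild type to *top1α-2* (horizontal axis) with its 95% interval for the 5 genes, at the top, and for 12 other tapetum and pollen wall genes, coloured by limma call. The 3 members and 6 other genes called lower have intervals that lie below 0, and the intervals of *INP1*, *UND* and *ROXY2* are the widest. The intervals are not adjusted for the number of probe sets, and those of *AMS*, *EMS1* and *BETA-VPE*, not called, also lie below 0.

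A further 5 list entries could be matched to a probe set by locus code alone, because the gene table pairs these loci with no such name. They were added after their values were seen and are given by locus. AT1G06170, AT1G33430 and AT1G75920 fell, with log2 changes of −1.69, −1.48 and −1.75 and limma adjusted p values of 0.00083, 1e-04 and 0.000229, and AT2G31210 and AT1G75900 had log2 differences of −1.06 and 0.44 with 0.0909 and 0.0768. With them 9 of 17 genes were lower, beside 5.86% of all probe sets. AT1G75920 and AT1G75900 are also neighbours of *ATA27*, so the same probe sets return among the neighbouring loci below.

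The genes whose pattern over the 6 arrays was most like that of each member were found among 5909 single-gene probe sets brighter than the median. Likeness was the root mean square difference between values after each gene's own mean was taken off, so that 0 is an identical pattern. The nearest to *ATA27* were AT1G20120, AT1G76470 and AT1G68875, at 0.104, 0.114 and 0.118, and they changed by −1.15, −1.17 and −1.33 on the log2 scale. The nearest to *A9* were AT5G62080, AT3G07450 and AT3G52130, at 0.115, 0.126 and 0.161, with changes of −0.87, −0.91 and −1.20. These 3 lost their calls when single arrays were dropped, the highest limma adjusted p values being 0.0508, 0.101 and 0.0553. The nearest to *BZIP34* were AT3G60780, AT1G23240 and AT1G30350, at 0.110, 0.142 and 0.144, with changes of −1.60, −2.02 and −1.80. AT3G52130 was also among the nearest to *UND*. For *INP1* and *UND* the nearest, AT2G28540 and AT3G52130, lay at 0.934 and 1.25. Probe sets brighter than the median had a median standard error of 0.139, beside 0.84 for *INP1* and 1.12 for *UND*. A close match to such wide scatter could hardly be found among bright genes, so no conclusion is drawn from these distances.

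**Figure D5:**
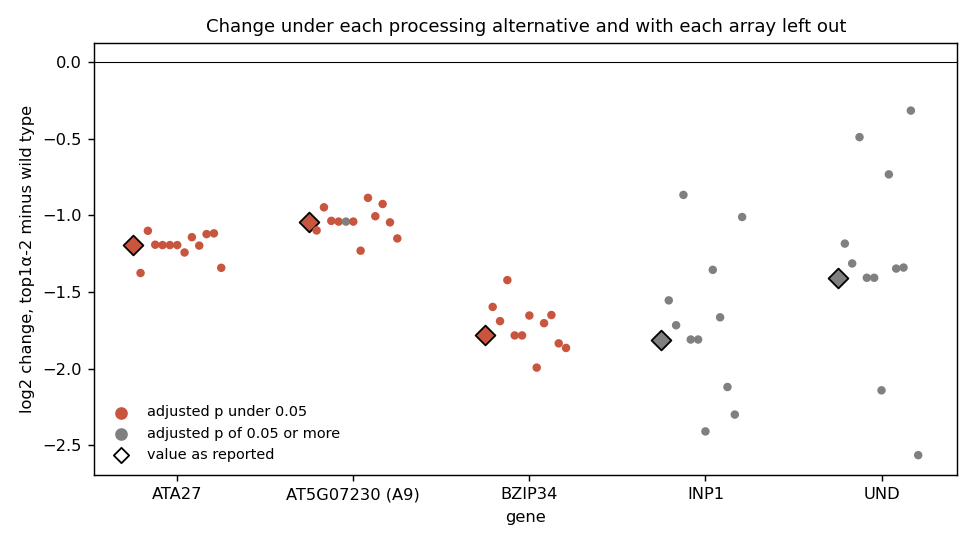
Log2 change from wild type to *top1α-2* (vertical axis) of the 5 genes as reported, as diamonds, and under each processing alternative or with 1 array left out, as points, in red where the limma adjusted p is under 0.05. *ATA27* stays between −1.38 and −1.10 and *BZIP34* between −1.99 and −1.42, while *UND* runs from −2.56 to −0.32.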

How the data were processed

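Per the submitters' processing notes the authors made the log2 values with affy and MAS5, which corrects background within an array and combines the probes of a set into 1 signal; versions and filters are not stated there. The deposited log2 values have a 2% trimmed mean of 500 on every array when unlogged. From the 22810 probe sets 64 controls were set aside, and 22746 were fitted by genotype in limma 3.58.1 (R 4.3.3) with lmFit and eBayes with a trend, adjusted by Benjamini-Hochberg. GEO's platform annotation names 1 gene for 13513 probe sets, several for 503 and none for 8730. By gene identifier 13436 matched RefSeq's table of TAIR10.1, used for names and gene order only, since no build is named for the array. Of several probe sets of a gene the brightest was used. Members, lists and tests were chosen with earlier results of these data known. The named genes are the members, the called members of the 4 lists and up to 6 uncalled ones per list, markers of lists that moved, and the 3 nearest patterns per member; the markers of lists with no call, the genes matched by locus and the neighbouring genes were added after their values were seen. The number of arrays limits precision. Probe sets of similar genes can share signal. The fit was tested on simulated data.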

Additional observations from a re-analysis of the deposited data

Results flagged for a closer look

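A control outside the genes reported differed between the genotypes. For 1 actin control the excess of the 3′ over the 5′ probe set, a measure of RNA quality, was 3.57 ± 0.19 on wild-type arrays and 4.03 ± 0.07 on *top1α-2* arrays (SD, n = 3), a difference of 0.46 on the log2 scale without overlap. Of 6 such ratios compared 1 was apart in this way, and the other actin control had means of 0.70 and 0.74. Its part in the changes of the 5 genes was not tested.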

How the results depend on the processing

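*ATA27* and *BZIP34* kept their calls under every alternative in which they were tested, and *INP1* and *UND* were called under none; *BZIP34*, *INP1* and *UND* are not tested without the dimmest 50% of probe sets. With single arrays left out the log2 changes ran from −1.34 to −1.12 for *ATA27*, −1.23 to −0.88 for *A9*, −1.99 to −1.65 for *BZIP34*, −2.41 to −1.01 for *INP1* and −2.56 to −0.32 for *UND*, the calls from 975 to 1335 lower and 357 to 794 higher probe sets, and the lower tapetum and pollen wall genes from 3 to 6. With a variance prior without the trend *A9* had −1.04 at a limma adjusted p of 0.0778, 633 probe sets were lower and 209 higher in place of 1334 and 773, and 3 of the tapetum and pollen wall genes were lower, *SPL*, *SHT* and *AMS*; the cause was not tested. After median centring the split was 1167 lower and 1153 higher. Differences near 0 changed sign, that of *ROXY2* to 0.032 after quantile normalization and that of *USP* to 0.030 after median centring. With single arrays left out *ROXY2* ran from −0.80 to 0.46, *USP* from −0.17 to 0.058, *SPO11-1* from −0.49 to 0.058 and *SDS* from −0.38 to 0.033. Same-numbered arrays of the genotypes had deviations that correlated at 0.095, 0.089 and 0.208, and the other pairs lay between −0.092 and −0.024. The labels state no pairing, and the replicate number was not taken as one, though each array correlated best with its own number. These values do not exclude a pairing. With the replicate block the limma adjusted p was 0.00221 for *ATA27*, 0.00159 for *A9*, 0.0179 for *BZIP34*, 0.22 for *INP1* and 0.494 for *UND*, with 1342 lower and 748 higher probe sets and 7 lower tapetum and pollen wall genes, the one gained being *BETA-VPE* at a limma adjusted p of 0.0417. Low signal limits what can be said of *INP1* and *UND*.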

Other observations

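The 5 nearest measured loci on each side of each member, in the locus order of TAIR10.1, were looked at after the values were seen. Around *ATA27*, AT1G75870 fell by 2.07, AT1G75920, the nearest measured locus before it, fell by 1.75 and AT1G75880 fell by 0.56, while AT1G75890 rose by 0.98 and the other 6 were not called. With single arrays left out the first 2 kept their calls, and AT1G75880 and AT1G75890 reached limma adjusted p values of 0.129 and 0.0965. Around *A9* 1 of 10 loci was called, *PRA1.B6*, which fell by 0.79 and reached 0.0573 with 1 array left out. Around *INP1* 1 of 10 was called, AT4G22650, which rose by 2.37 from a dim 2.99 and reached 0.112, and around *BZIP34* and *UND* 0 of 10 each were called by limma. Over all probe sets 5.86% were called lower and 3.40% higher. At an unadjusted p under 0.05 there were 5 of 10 loci around *ATA27*, 3 around *A9*, 1 around *BZIP34*, 2 around *INP1* and 4 around *UND*, beside 23.3% of all probe sets.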
